A study of Mus musculus with 6 samples.

Results

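The miR-181 family and the pair miR-221 and miR-222 were followed through 4 TaqMan assays, mmu-miR-181a, mmu-miR-181c, mmu-miR-221 and mmu-miR-222, all on card A of the TaqMan Array Rodent MicroRNA cards. They were taken by name, as the assays for miR-181, miR-221 or miR-222 without the mark # of a passenger strand, and are 4 of the 750 miRNA assays on cards A and B. Total RNA came from blastocysts of superovulated Kunming mice aged 5 weeks, an outbred stock, mated to fertile males, in 3 fresh pools (F1, F2 and F3) and 3 vitrified pools (V1, V2 and V3) of 300 blastocysts each. Vitrified blastocysts were held for 30 seconds in 10% EG with 10% DMSO, for 25 seconds in EDFS30 within an open-pulled straw, plunged into liquid nitrogen, and thawed in 0.5 M sucrose for 5 minutes. Fresh blastocysts had no such treatment. The labels of all 6 pools name CZB as the culture medium. The study's methods judged survival of vitrified blastocysts by intact morphology and re-expansion, hours after warming, and describe no such wait for fresh ones. How long embryos of either group were held before RNA extraction is not stated. Vitrification and any difference in that time therefore cannot be told apart. A value is thus an average over pooled embryos, and inner cell mass and trophectoderm were not separated.

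A miRNA pairs with target transcripts mainly through its seed, bases 2 to 8 from the 5′ end, and lowers their translation and stability. The miR-181 family is known for its work in lymphocyte development and T-cell signalling and in several differentiation programmes. The pair miR-221 and miR-222 is known for repressing the cell cycle inhibitor p27 (Cdkn1b) and the receptor Kit, and is abundant in vessel wall and many proliferating cells. The comparison of vitrified with fresh pools asks whether vitrification shifts the abundance of these miRNAs before implantation.

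The mature sequences below are shown because they define the families and show how alike the paired assays' targets are. They were taken from RefSeq for GRCm38.p6, 5′ to 3′, with the seed in capitals. The assays were taken to measure the arm that the older name denotes, which is the 5p arm for miR-181 and the 3p arm for miR-221 and miR-222.
mmu-miR-181a-5p: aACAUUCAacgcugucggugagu
mmu-miR-181c-5p: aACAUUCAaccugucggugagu
mmu-miR-181b-5p: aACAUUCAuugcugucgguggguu
mmu-miR-181d-5p: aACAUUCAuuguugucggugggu
mmu-miR-221-3p: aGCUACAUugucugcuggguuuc
mmu-miR-222-3p: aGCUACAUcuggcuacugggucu

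The seed ACAUUCA belongs to 4 of the 1679 mature mouse miRNAs of that table, and these are the 4 members of the miR-181 family above, of which miR-181b and miR-181d were not analysed here. The seed GCUACAU belongs to 3, which are miR-221-3p, miR-222-3p and mmu-miR-1928. The miR-181a and miR-181c sequences share their first 10 bases and differ by an edit distance of 1, whereas those of miR-221 and miR-222 share their first 8 bases and differ by an edit distance of 5. Whether the miR-181a and miR-181c assays detect each other's target was not tested. The coordinates that follow are those of the mature sequences on GRCm38.p6 in RefSeq, since the Ct values name no genome build. Distances between genes are those between their hairpins. The miR-181a sequence is encoded by 2 genes, Mir181a-1 (chr1:137966468-137966490, plus strand) and Mir181a-2 (chr2:38852741-38852763, plus strand, within the span of Nr6a1 and Nr6a1os), and its assay cannot tell them apart. The miR-181c sequence lies in Mir181c (chr8:84178924-84178945, minus strand), with Mir181d as the nearest miRNA gene at 86 bases. Mir221 (chrX:19146307-19146329, minus strand) and Mir222 (chrX:19146901-19146923, minus strand) are each other's nearest miRNA gene, with 505 bases between their hairpins. No other gene of the table overlaps Mir221, Mir222 or Mir181c.

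Pools V1 and F1 stood apart from the other 4 before any comparison. V1 gave a Ct in 218 and F1 in 140 of the 750 miRNA assays, against 382 to 409 in V2, V3, F2 and F3. The threshold cycle (Ct) is the cycle at which a well's fluorescence crosses a threshold, so 1 cycle less means about 2-fold more template, and a well that had not crossed by cycle 40 was undetermined. Of 196 miRNA assays on card A determined in all 4 pools numbered 2 and 3, 130 (66.3%) were determined in V1 and 81 (41.3%) in F1. Where determined, they came later than the mean of the other 2 pools of their group by a median of 5.65 cycles in V1 and 6.28 cycles in F1. The U6 snRNA wells of card A did not show this, with a mean Ct of 17.82 in V1 and 17.08 in F1 and between 16.59 and 17.10 in the others. Results are therefore given with and without V1 and F1.

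Markers of the labelled tissue were undetermined in V1 and nearly all undetermined in F1. Over all 750 miRNA assays, 29.1% were determined in V1 and 18.7% in F1, against 50.9% to 54.5% in the other pools. The miR-290 to miR-295 cluster and the cluster of miR-302 and miR-367, which mark the early embryo and embryonic stem cells, have 21 assays on the cards. None was determined in V1 and 1 in F1, mmu-miR-367, at a Ct of 33.35, against 8 to 12 in the other 4 pools. Of these 21 assays 8 were undetermined in every pool, among them mmu-miR-302a, mmu-miR-302c and mmu-miR-302d, and the assay with the lowest mean Ct was mmu-miR-292-3p on card A, at 24.12 over the 4 pools numbered 2 and 3. Markers of blood cells were determined in 6 of 8 assays in V1 and 5 of 8 in F1, and in 7 or 8 in the others. Markers of connective tissue, smooth muscle and vessel wall were determined in 6 of 10 in V1, 4 of 10 in F1 and all 10 in the others. The summed level of the blood list, relative to U6, ranged from 0.0135 to 0.123 in vitrified and from 0.0192 to 0.136 in fresh pools. That of the connective tissue and vessel list ranged from 0.00197 to 0.189 in vitrified and from 0.000589 to 0.563 in fresh pools. That of the embryo list reached 0.0254 in vitrified and 0.0210 in fresh pools, below these other lists in each of the 4 pools numbered 2 and 3. The liver marker miR-122 had a Ct in V3 and F2 only, and the neuron marker miR-124 in the 4 pools numbered 2 and 3. The part of these other cell types in the levels of miR-181, miR-221 and miR-222 was not tested. In such bulk RNA, fewer cells of a type and less RNA per cell cannot be told apart.

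**Figure D1:**
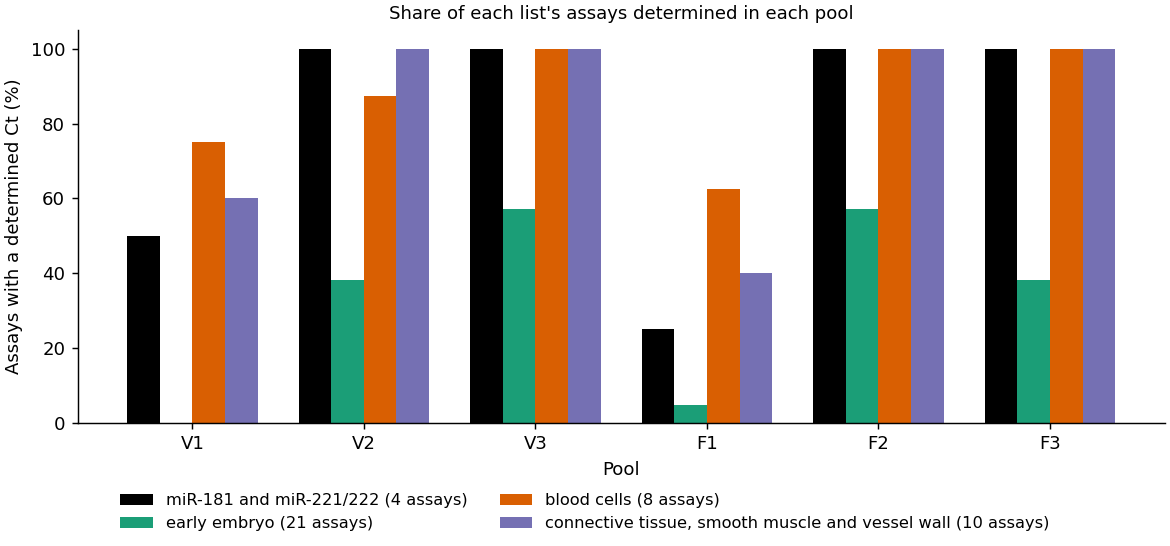
Percentage of assays with a determined Ct in each pool, for the 4 family members and for the lists of early embryo, blood cell, and connective tissue and vessel markers. No early embryo assay was determined in V1 and 1 of 21 in F1, where 2 and 1 of the 4 family members were determined.

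The abundant member was mmu-miR-222. V1, V2 and V3 crossed at a raw Ct of 25.65, 21.93 and 22.47, and F1, F2 and F3 at 27.54, 21.78 and 20.11. It was the only family member determined in every pool, lowest in F1 and highest in F3, so that the vitrified values lay inside the range of the fresh ones. Counted from the lowest Ct, it ranked 12th of the 239 miRNAs determined on card A in F2 and 5th of 229 in F3, 14th of 212 in V2 and 17th of 234 in V3. In V1 and F1, where fewer assays gave a Ct, it ranked 12th of 140 and 18th of 88.

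Its cluster partner mmu-miR-221 was lower in every pool. The vitrified pools V2 and V3 gave a raw Ct of 27.21 and 26.11, and F2 and F3 gave 27.49 and 26.40, while it was undetermined in V1 and F1. Vitrified and fresh values overlapped, and among the determined card A miRNAs it ranked 104th of 212 in V2, 82nd of 234 in V3, 112th of 239 in F2 and 95th of 229 in F3.

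From the other family, mmu-miR-181a reached threshold in V1, V2 and V3 at a raw Ct of 35.89, 27.81 and 27.86, while F2 and F3 gave 27.58 and 27.19 and F1 was undetermined. The V1 value stood far from the other 4, which lay between 27.19 and 27.86. Of the members it varied least among these pools, with an SD of 0.30 cycles (n = 4), against 0.39 for mmu-miR-181c, 0.66 for mmu-miR-221 and 1.02 for mmu-miR-222. For mmu-miR-181c the raw Ct was 30.92 in V2, 30.21 in V3, 30.90 in F2 and 31.10 in F3, and V1 and F1 were undetermined. It was the last of the members to cross the threshold in each pool that determined all of them. The opposite arm of the Mir181a-2 hairpin, measured as mmu-miR-181A-2# on card B, was undetermined in all 6 pools. RefSeq lists miR-213 as an older name of Mir181a-1, and the name was used for the opposite arm of that hairpin. The assay hsa-miR-213 on card B, looked up after the other values were known, gave a Ct of 32.84 and 30.66 in V2 and V3 and 30.75 and 32.80 in F2 and F3, with V1 and F1 undetermined, and its groups overlapped. Outside both families, mmu-miR-1928, which shares the seed of miR-221 and miR-222, was also undetermined in V1 and F1 and had a Ct of 35.16 in V2, 31.61 in V3, 33.25 in F2 and 32.48 in F3.

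**Figure D2:**
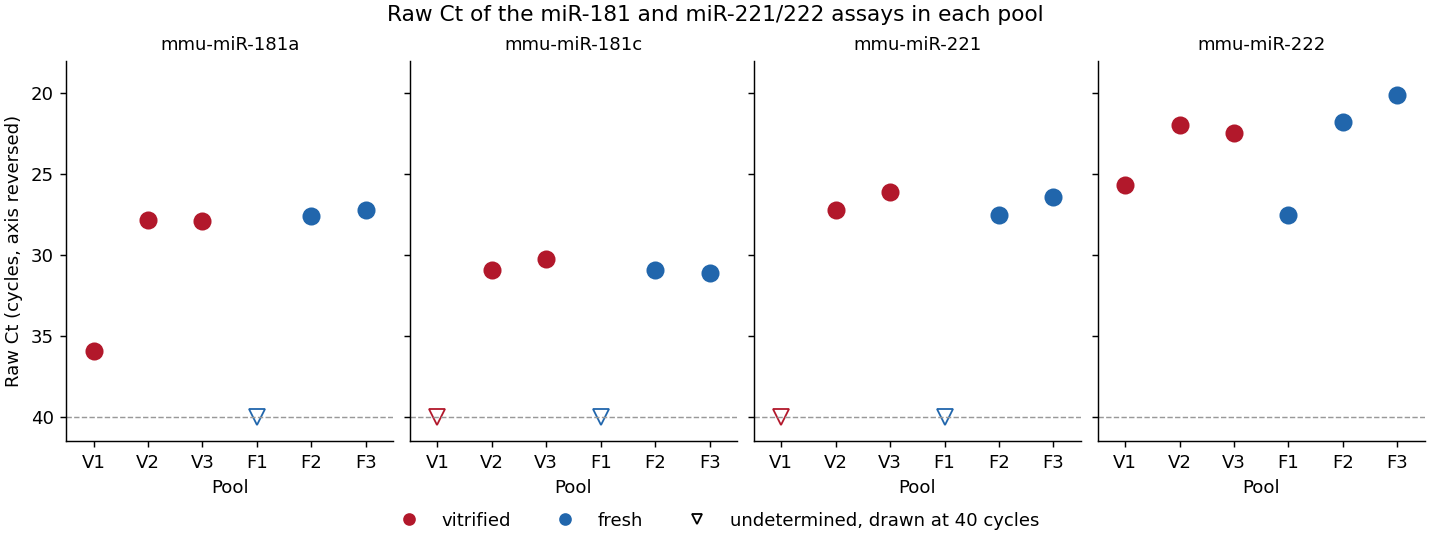
Raw Ct (cycles, axis reversed so that more template is higher) of each family member in the 6 pools, with open triangles at 40 cycles for undetermined wells. In the pools numbered 2 and 3 the order runs from mmu-miR-222 (20.11 to 22.47) to mmu-miR-181c (30.21 to 31.10), and 5 of the 8 wells of V1 and F1 are undetermined.

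Over the 4 pools numbered 2 and 3, the order by Ct was mmu-miR-222 at 21.57 ± 1.02, mmu-miR-221 at 26.80 ± 0.66, mmu-miR-181a at 27.61 ± 0.30 and mmu-miR-181c at 30.78 ± 0.39 (mean ± SD, n = 4). The neighbours mmu-miR-221 and mmu-miR-181a overlapped in range, from 26.11 to 27.49 and from 27.19 to 27.86, although mmu-miR-221 came first within each of these pools, by 0.09 to 1.75 cycles. The other neighbours did not overlap. Each assay has its own amplification efficiency, so this order is that of the Ct values and a description of abundance only as far as efficiencies are alike.

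For the comparison of groups, the mean Ct of the 4 U6 wells of card A in the same pool was subtracted to give ΔCt, and −ΔCt served as the level on the log2 scale. Among the miRNA assays with a Ct in no fewer than 2 pools of each group, 0 of 335 (0%) had an adjusted p-value under 0.05 in limma, with 1 at an unadjusted p-value under 0.05, and none of the 4 family members did. The median log2 fold change of vitrified against fresh pools was −0.05 over the 335 assays, with quartiles of −1.09 and 0.70. Of the marker lists, 0 of 8 tested early embryo assays, 0 of 7 blood cell assays and 0 of 10 connective tissue and vessel assays passed, with median log2 fold changes of −0.12, 0.31 and 0.16.

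The levels of mmu-miR-222 in V1, V2 and V3 were −7.83, −4.83 and −5.51, and those in F1, F2 and F3 were −10.46, −5.19 and −3.15. The group means of −6.06 ± 1.58 (SD, n = 3) and −6.27 ± 3.77 (SD, n = 3) gave a log2 fold change of 0.21 (standard error 2.02, 95% interval −4.68 to 5.11, adjusted p = 0.998 from limma). The difference was smaller than the SD of either group (2-sided exact permutation test, p = 0.9, where 3 against 3 allow no less than 0.1). Between pools of the same number it was 2.63 for V1 over F1, 0.37 for V2 over F2 and −2.35 for V3 over F3, so the 3 pairs ran in both directions. In the pools numbered 2 and 3 alone the log2 fold change was −0.99 (standard error 0.88, adjusted p = 0.912 from limma). The direction also turned with the snoRNAs (−1.65) or the global mean (−0.16) as the reference, without a reference (−0.21), and without F1 (−1.88), V2 (−0.40) or V3 (−0.06). F3 holds the highest mmu-miR-222 level and also the highest summed level of connective tissue and vessel markers, 0.563 against 0.0847 to 0.189 in V2, V3 and F2. F1 is the lowest in both. The order is not the same throughout, since V3 is above F2 in these markers (0.112 against 0.0847) and below it in mmu-miR-222. The blood list is also highest in F3, at 0.136, but lowest in V1, at 0.0135. The part of any of these cells in the spread of mmu-miR-222 was not tested.

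For mmu-miR-221 the level was −10.11 in V2, −9.14 in V3, −10.91 in F2 and −9.44 in F3. Between pools of the same number, the vitrified level was higher by 0.80 for V2 over F2 and by 0.30 for V3 over F3, and on raw Ct V2 and V3 each came first by 0.29 cycles. Across the groups the values overlapped, at a log2 fold change of 0.55 (standard error 1.27, 95% interval −2.87 to 3.97, adjusted p = 0.998 from limma). With V1 and F1 undetermined this is already a comparison of 2 against 2 pools (2-sided exact permutation test, p = 0.667, where the smallest possible p is 0.333), and the fit on these 4 pools alone gave the same value with a standard error of 0.78. With the snoRNAs snoRNA202 and snoRNA135 as the reference it turned to −0.26.

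The levels of mmu-miR-181a in V1, V2 and V3 were −18.07, −10.71 and −10.89, and those in F2 and F3 were −11.00 and −10.24. Its log2 fold change of −2.61 (standard error 2.54, 95% interval −9.02 to 3.80, adjusted p = 0.998 from limma) ranked high in size, with 313 of the 335 assays, itself included, showing none larger, but it rested on V1. Without V1 it was −0.18 (standard error 0.68, adjusted p = 0.923 from limma), and the levels of V2 and V3 lay within the range of F2 and F3. On raw Ct, without U6, all 3 vitrified values came later than both fresh ones (2-sided exact permutation test, p = 0.5). The delay was 0.23 cycles for V2 after F2 and 0.67 for V3 after F3. On raw Ct, 73 of the 335 assays had groups that did not overlap. The direction turned to 1.49 with undetermined wells set at 40 cycles and to 0.12 at a ceiling of 35 cycles. V1 gave a Ct for this miRNA and F1 did not, so that exclusion of the undetermined F1 well left V1 without its fresh counterpart.

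For mmu-miR-181c the level was −13.82 in V2, −13.24 in V3, −14.31 in F2 and −14.14 in F3. Both vitrified values lay above both fresh ones, at a log2 fold change of 0.70 (standard error 1.13, 95% interval −2.37 to 3.76, adjusted p = 0.998 from limma). This was the smallest p that 2 against 2 allow (2-sided exact permutation test, p = 0.333), and on raw Ct, without U6, the groups overlapped. With snoRNA202 and snoRNA135 as the reference the log2 fold change turned to −0.12. In −ΔCt against U6, non-overlapping groups were found for this 1 of the 4 family members, against 15.2% of the 335 assays. The 335 include assays with 3 pools in a group, which separate by chance less often than 2 against 2. In the pools numbered 2 and 3 alone, where every assay is 2 against 2, it was again 1 of 4 members, against 28.8% of 326 assays.

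**Figure D3:**
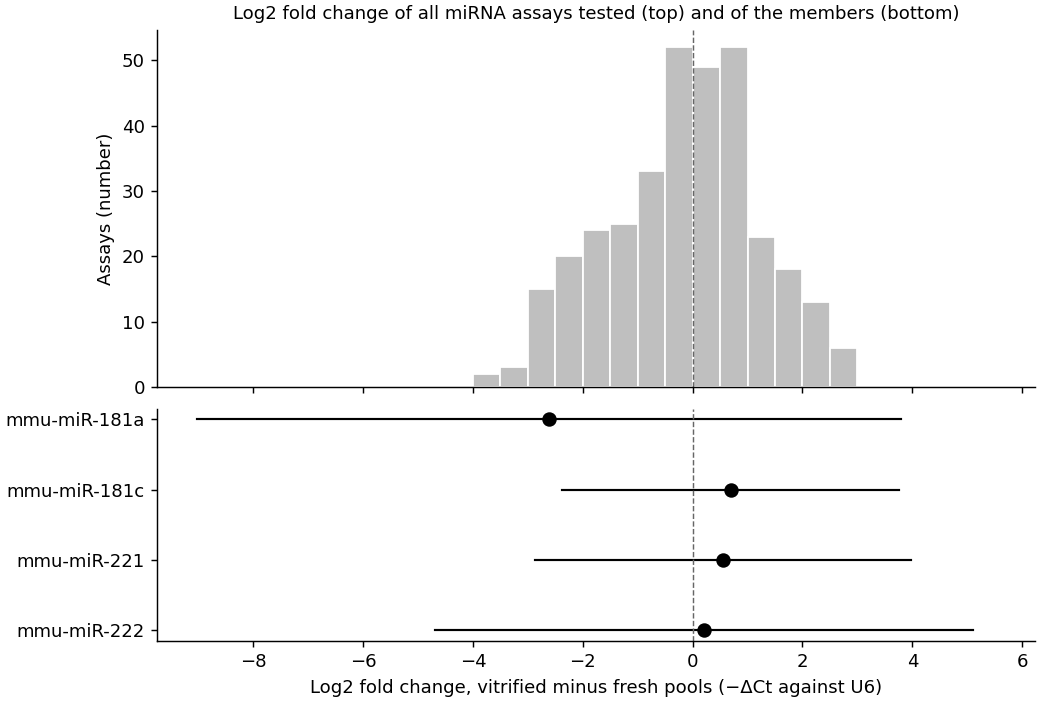
Log2 fold change of vitrified against fresh pools, from −ΔCt against U6. Top: number of assays in each bin for the 335 tested miRNA assays. Bottom: the 4 family members, points with 95% intervals from limma, all of which include 0.

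**Figure D4:**
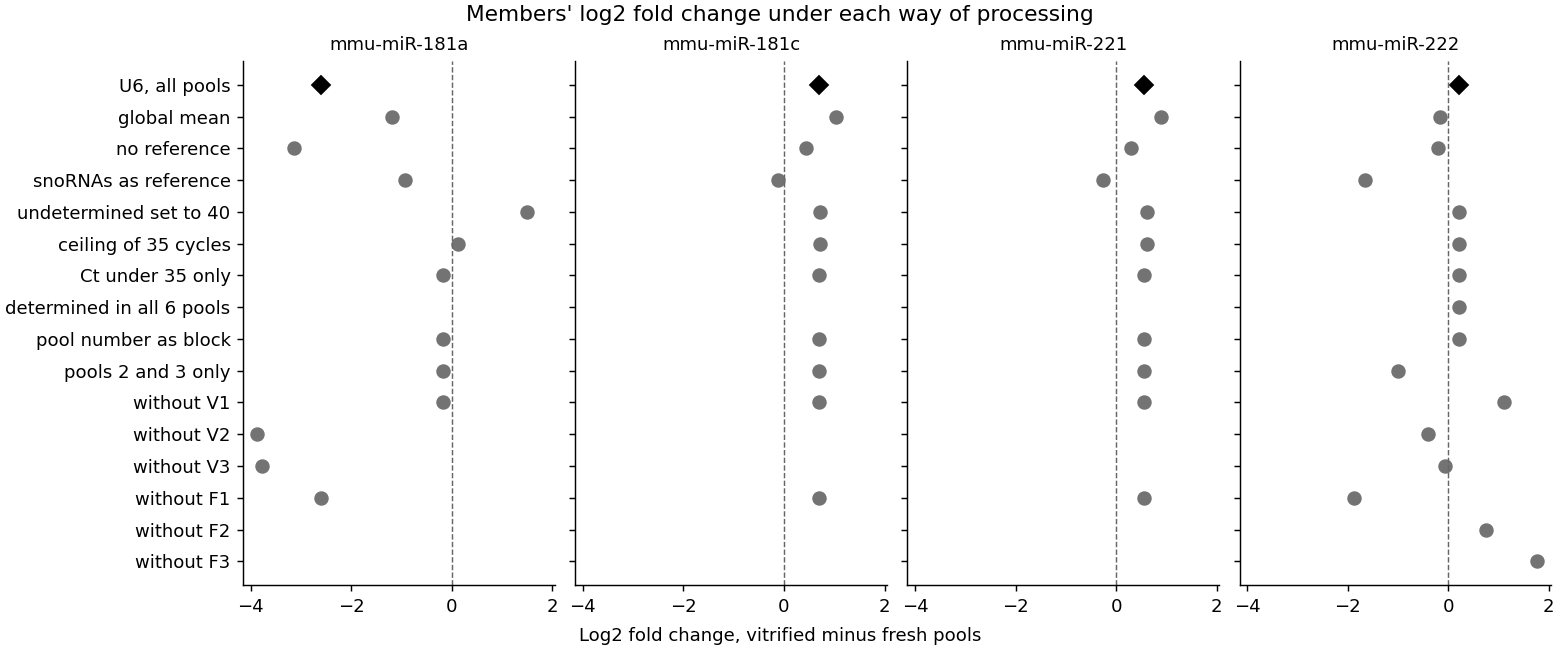
Log2 fold change of vitrified against fresh pools for each family member (columns) with U6 and all pools (diamonds) and under each other way of processing (circles), where a missing circle means that too few wells were left. For mmu-miR-222 the values lie on both sides of 0, from −1.88 without F1 to 1.77 without F3.

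Differences between family members within a pool do not depend on U6, since all 4 assays share card A. In the pair encoded by 1 cluster, mmu-miR-221 crossed later than mmu-miR-222 by 5.28 cycles in V2, 3.63 in V3, 5.71 in F2 and 6.29 in F3. At a doubling per cycle these differences correspond to ratios of 38.8, 12.4, 52.5 and 78.2. In V1 and F1 mmu-miR-222 was determined and mmu-miR-221 was not, which puts the difference at no less than 14.35 cycles in V1 and 12.46 cycles in F1. Both bounds lay above all 4 measured differences. Measured against V2 and V3, mmu-miR-222 was delayed in V1 by 3.45 cycles, which 38 of the 130 determined card A miRNAs did not exceed, and mmu-miR-221 by at least 13.34 cycles. Against F2 and F3, F1 was later by 6.59 cycles for mmu-miR-222, which 43 of the 81 determined card A miRNAs did not exceed. For mmu-miR-221 it was later by at least 13.05 cycles. These ranks leave out miRNAs undetermined in V1 or F1, since of 196 card A assays only 130 and 81 gave a Ct there.

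The 2 miR-181 assays differed by less. mmu-miR-181c crossed later than mmu-miR-181a by 3.11 cycles in V2, 2.35 in V3, 3.32 in F2 and 3.90 in F3, at a doubling per cycle a ratio of 5.10 to 15.0. In V1 the difference was at least 4.11 cycles, and in F1 both were undetermined. The delay of mmu-miR-181a in V1 against V2 and V3 was 8.06 cycles, which 112 of the 130 card A miRNAs with a Ct in V1 did not exceed. The rest of the 196 assays, undetermined in V1, have no measured delay and are not in this rank. Within V1 mmu-miR-222 stood 10.24 cycles before mmu-miR-181a, against 5.39 to 7.08 cycles in the pools numbered 2 and 3.

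**Figure D5:**
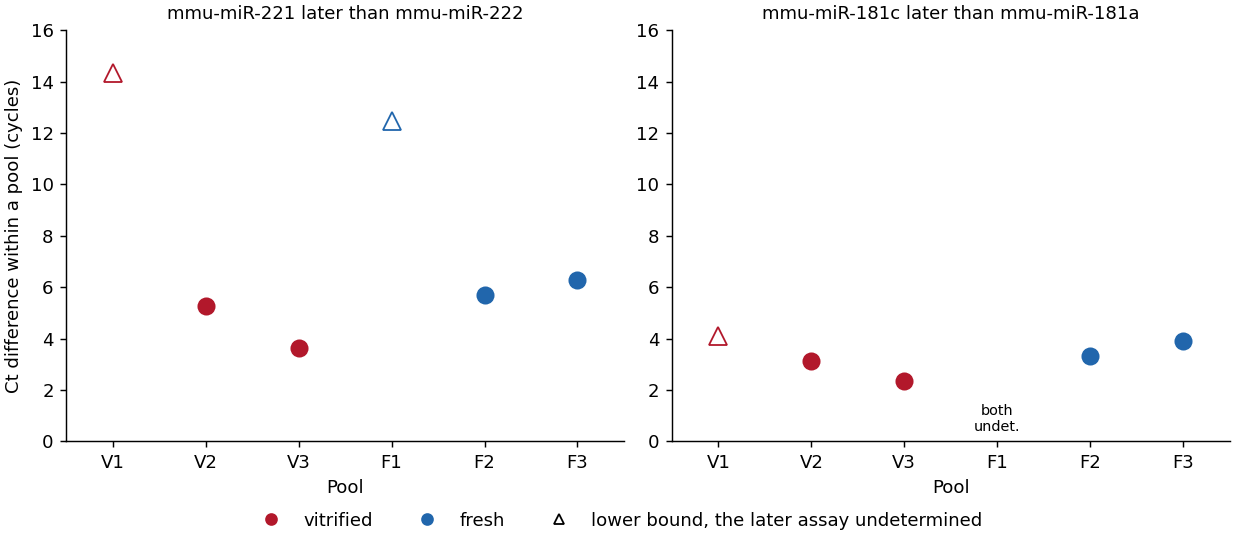
Ct difference in cycles between 2 family members in the same pool, for mmu-miR-221 after mmu-miR-222 (left) and mmu-miR-181c after mmu-miR-181a (right), with open triangles as lower bounds where the later assay was undetermined. The left difference is 3.63 to 6.29 cycles in the pools numbered 2 and 3 and at least 12.46 cycles in V1 and F1.

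All 6 pairs of family members were compared between vitrified and fresh pools with 2-sided exact permutation tests, and no adjusted p-value was under 0.667. The difference of mmu-miR-221 after mmu-miR-222 averaged 4.45 ± 1.16 cycles in V2 and V3 and 6.00 ± 0.41 cycles in F2 and F3 (SD, n = 2 each, exact permutation test, p = 0.333, adjusted p = 0.667). The same p-values were found for mmu-miR-181c after mmu-miR-181a, at 2.73 ± 0.54 cycles against 3.61 ± 0.41 (SD). The pair of mmu-miR-222 and mmu-miR-181c also gave them. In these 3 of the 6 pairs vitrified and fresh values did not overlap, against 23.6% of 19501 pairs of card A assays. The 19501 include pairs with 3 pools in a group, which separate by chance less often than 2 against 2. The shares are therefore not on an equal footing. The 6 pairs of family members share assays, and a p of 0.333 is the smallest that 2 against 2 pools allow. In the remaining 3 pairs the values of the groups overlapped.

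Among the other 79 card A miRNAs determined in all 6 pools, the profiles closest to mmu-miR-222 were those of mmu-miR-24, mmu-miR-29a and mmu-miR-135b. Likeness was the root mean square difference of −ΔCt over the 6 pools after each assay's own mean was subtracted, and was 0.29, 0.41 and 0.48, against a median of 1.34 over the 79. The raw Ct of mmu-miR-24 was 24.21, 20.78 and 21.07 in V1, V2 and V3, and 25.56, 20.37 and 19.05 in F1, F2 and F3, with the 6 pools in the same order as for mmu-miR-222. All these profiles share the pools and the U6 wells.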

How the data were processed

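Total RNA of each pool (30 ng) was reverse transcribed and pre-amplified, per the labels, and the study's methods name RQ Manager for the Ct. The authors deposited raw Ct values, 1 per well and pool, for the 768 wells of the cards. Their second table holds their own fold changes and was not used. The members and lists were chosen with earlier results of these data known.

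A Ct of 40 or more, or undetermined, was excluded. ΔCt was taken against the mean of 4 U6 wells per card and pool. The 335 assays with a Ct in no fewer than 2 pools of each group entered limma 3.58.1 in R 4.3.3 (lmFit, eBayes, Benjamini-Hochberg adjustment), and the step was tested on simulated data. Exact permutation tests used Python 3.11.15. The labels speak of triplicate measurement, but each member has 1 value per pool, so the number of pools limits precision, and where nothing in the labels says that pools came from separate collections, p-values measure only the spread between these pools.

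Deviations of same-numbered pools from their group means correlated over 122 assays (0.80, 0.78 and 0.67 for the numbers 1, 2 and 3). This pairing comes from the numbers in the labels. The deviations within a group cancel out, so the late V1 and F1 also shape the values for the numbers 2 and 3. Correlations between pools of unlike number were not computed, so these values cannot show that same-numbered pools belong together.

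The text names the members, the passenger strand assay, the same-seed assay and hsa-miR-213 (both chosen after the data were seen), and the 3 assays most like each member determined in every pool. From the marker lists it names some assays only, among them the early embryo assay with the lowest mean Ct. Alternatives were another reference, other treatments of undetermined wells, the pool number as a block, left-out pools and another variance prior.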

Additional observations from a re-analysis of the deposited data

How the results depend on the processing

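In limma, none of the 16 alternatives gave an assay past the adjusted threshold (0 calls each, and 0 to 16 at an unadjusted p-value under 0.05), and no member passed under any. The directions of mmu-miR-181c and mmu-miR-221 turned only with snoRNA202 and snoRNA135 as the reference, to log2 fold changes of −0.12 and −0.26, a reference that moved the median over all assays from −0.05 to −0.78. That of mmu-miR-181a turned to 1.49 once undetermined wells took a Ct of 40 and to 0.12 at a ceiling of 35 cycles, and leaving out single pools gave −3.87 to −0.18 (−0.18 without V1). That of mmu-miR-222 was −0.16 with the global mean, −0.21 without a reference, −1.65 with the snoRNAs and −0.99 in the pools numbered 2 and 3, and leaving out single pools gave −1.88 (without F1) to 1.77 (without F3). With the pool number as a block, the log2 fold changes were −0.18 for mmu-miR-181a, 0.70 for mmu-miR-181c, 0.55 for mmu-miR-221 and 0.21 for mmu-miR-222, and no call changed. With undetermined wells at 40 cycles, the vitrified minus fresh difference between members turned to 0.78 cycles for mmu-miR-181c minus mmu-miR-181a, 0.88 for mmu-miR-221 minus mmu-miR-181a and 1.28 for mmu-miR-222 minus mmu-miR-181a. The last, −0.73 with all pools, was 0.81 with only Ct values under 35 kept, with the block, and in the pools numbered 2 and 3. It was −0.09 at a ceiling of 35 cycles, and −1.62 to 0.81 when single pools were left out. Under the 40-cycle setting, undetermined wells take a fixed value, and other causes were not tested. Leaving out V2, V3, F2 or F3 gave no value for mmu-miR-181c and mmu-miR-221, and leaving out F2 or F3 none for mmu-miR-181a, since fewer than 2 wells remained in a group. Requiring a Ct in all 6 pools kept only mmu-miR-222.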
